A study of Mus musculus with 26 samples.

Results

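The 64 genes described here encode factors that start and extend protein synthesis on cytosolic ribosomes, together with kinases, repressors and methyltransferases that act on those factors. Members were all genes whose symbol begins with Eif or Eef followed by a digit, leaving out Eif2s3y, a rule that reads symbols and not values. They are 64 of 33453 gene symbols listed in the count tables, and all 64 were among the 31979 genes that could be joined over the 26 libraries. Eef1akmt1 appears under its older symbol N6amt2 in 10 of the tables.

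The study measured ribosome-bound RNA from indirect-pathway medium spiny neurons, the striatal projection neurons that carry the D2 dopamine receptor. Adult Drd2-EGFP/Rpl10a mice of line CP101 (Drd2-TRAP; FVB/N-Swiss Webster crossed to C57BL/6 for at least 9 generations) express an EGFP-tagged ribosomal protein under Drd2 control, and anti-EGFP immunopurification from dorsal striatum recovers tagged polysomes. All animals carried the transgene and self-administered either saline or cocaine intravenously with long access. Immunopurified libraries numbered 3 for saline, 4 for cocaine with non-escalating intake, 2 for cocaine with escalating intake, 5 for saline followed by withdrawal and 9 for non-escalating cocaine followed by withdrawal. Total RNA input libraries numbered 3, with 1 each for saline, non-escalating cocaine and saline withdrawal. How long withdrawal lasted is not stated in the labels. Labels do not say whether libraries came from separate animals, and 16 of the 26 titles carry a mark calling the library a copy of another, lower-numbered one, without saying what a copy is. The p-values therefore measure the spread between libraries, which may be technical in part. For the fits the libraries were divided by these numbers into set A (all groups) and set B (withdrawal groups only). Set A holds the 16 marked libraries and saline withdrawal replicate 2, which has no copy mark and was placed there because its number falls within the run of numbers that the marks name. That library has the lowest depth, 3279457 gene counts, and its table lists 63 of the members, like those of set B. Treated as a set of its own it left the count of called members at 3 for purified against input RNA and at 0 in the comparisons of groups, while each value given for set A alone includes it.

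Initiation begins when eIF2, carrying the initiator tRNA and GTP, joins eIF1, eIF1A, eIF3 and eIF5 on the small ribosomal subunit, and the eIF4 proteins bring that complex to the cap of the mRNA. The eIF2 kinases phosphorylate eIF2 under stress, which blocks its recharging by the exchange factor eIF2B. During elongation eEF1A delivers aminoacyl-tRNA, eEF2 moves the ribosome along the mRNA, and eEF2 kinase, which calcium and calmodulin activate, slows that step in neurons.

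Gene counts per library ran from 3279457 to 19122303, and reads uniquely aligned but assigned to no gene made up 21.2% to 70.7% of the immunopurified libraries. As a check of the purification, Drd2 was higher in immunopurified than in input RNA by 2.79 ± 0.38 (log2, SE), Rpl10a by 1.74 ± 0.32, and Drd1, the receptor of the direct pathway, was lower (-3.25 ± 0.32), with all 3 called at an adjusted p under 0.05. Indirect-pathway markers summed to 2100 to 14935 CPM (CPM scales counts to a common library size, here with edgeR's TMM factors) in immunopurified libraries and 2031 to 2128 in inputs. Endothelial and mural markers summed to 224 to 7643 CPM in immunopurified libraries and 123 to 426 in inputs, with 3 of 9 called higher. Astrocyte markers summed to 170 to 387 CPM against 1996 to 3087, and 6 of 8 were called lower.

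Translation factor genes together held 0.538% to 0.741% of gene counts in the immunopurified libraries and 0.552% to 0.713% in the inputs, so the ranges overlapped. Rankings by CPM in later paragraphs serve to pick the genes named and do not correct for length. In this paragraph levels of different genes are compared per kilobase of annotated exon. On that scale elongation factors led. Mean immunopurified levels over the 12 libraries that have a matching input condition were 247 CPM per kb for Eef1a1, the more widely expressed eEF1A gene, and 209 for Eef2. Eif5a (91.9 CPM per kb), whose product carries hypusine and helps ribosomes through difficult peptide bonds, Eif1 (84.6), which guards start-codon choice, and Eef1a2 (84.2), the eEF1A gene of neurons and muscle, followed. These 5 genes stood at the 98.3rd percentile or higher of the genes that had an exon length and enough counts to be tested against input. At the other end, Eif4e1b had 0 counts in every library, which allows up to 3 counts per library, and Eif4ebp3 never exceeded 8 counts. Eif3j2 had 1 to 11 counts per library, and 90.8% of its transcript positions lie in 50-base runs shared with Eif3j1, so counts of this pair are uncertain.

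Purified and input RNA were compared in 12 and 3 libraries. The question was which of these mRNAs differ between ribosome-bound RNA of indirect-pathway neurons and total RNA of dorsal striatum. Such a difference cannot separate the amount of an mRNA in these neurons from the part of it that is on ribosomes. Of 60 genes with enough counts, 3 were called by edgeR's quasi-likelihood test (Benjamini-Hochberg adjusted p under 0.05): Eif4enif1 was higher, and Eif4a2 and Eif2s2 were lower. Over all 15612 genes tested, 7.38% were called, 3.58% higher and 3.8% lower, so the share among translation factors was near the background. At an unadjusted p under 0.05 there were 17 genes (28.3%, against 26.3% of all genes). The median log2 fold change was 0.08, against 0.16 for all genes. In tissue RNA, fewer cells of a type and less RNA per cell cannot be told apart, and this applies to every input value.

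**Figure D1:**
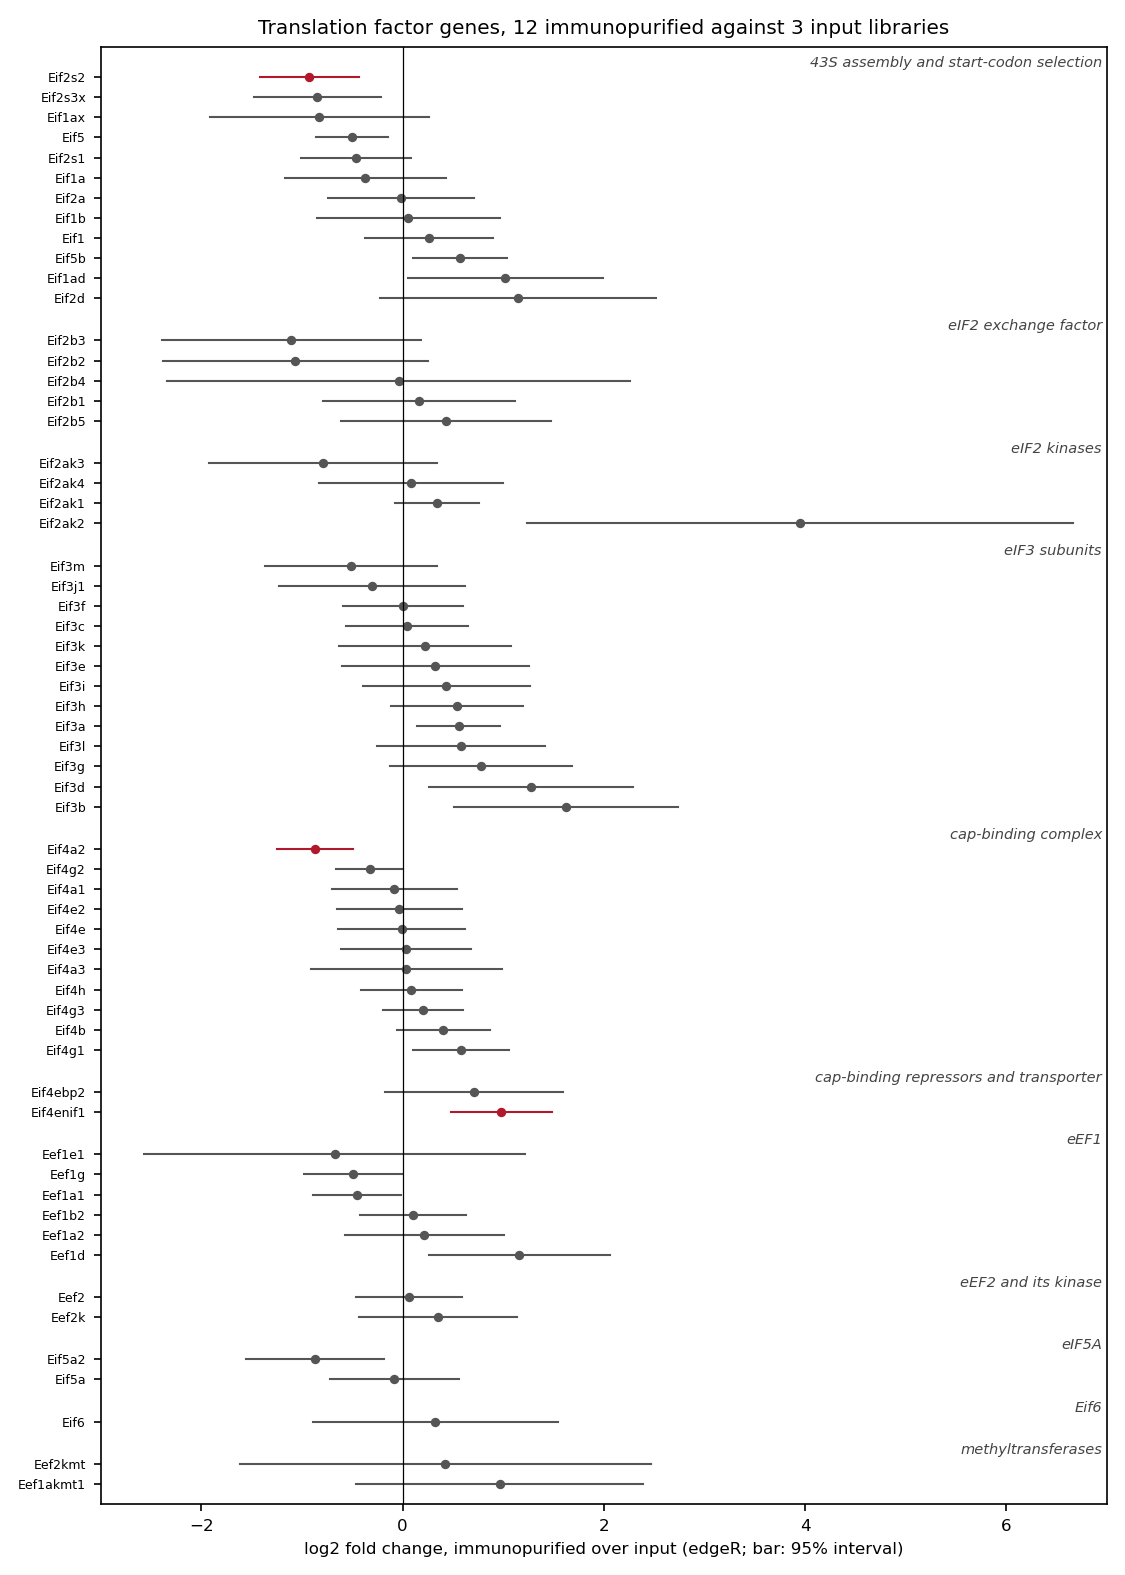
Log2 fold change of immunopurified over input RNA (horizontal axis) for the 60 translation factor genes tested, grouped by role; points are edgeR estimates from 12 and 3 libraries and bars are 95% intervals. Red marks the 3 called genes, Eif2s2 and Eif4a2 to the left of 0 and Eif4enif1 to the right; the interval of Eif2ak2 is the widest.

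Among cap-binding factors, Eif4a2 (chr16:23107444-23114136, plus strand, GRCm38) showed the lowest p of all members. It encodes 1 of 2 closely related RNA helicases that unwind the 5′ end of mRNA as part of eIF4F. Its 3 inputs stood at 445 (saline), 435 (non-escalating) and 638 CPM (saline withdrawal). Immunopurified libraries ranged from 169 to 400 CPM with a median of 241, and all 12 lay below the lowest input. The log2 fold change was -0.87 ± 0.17 (SE; adjusted p = 0.0072). It was -0.79 in set A alone, where the adjusted p was 0.053 (9 immunopurified and 2 input libraries, edgeR), and -1.04 in set B alone, which has 1 input and so gives a value without a spread for input. Exons of Eif4a2 overlap 7 other annotated genes over 13.3% of their length, and reads ambiguous between genes made up 8.61% to 12.8% of uniquely aligned reads in inputs and 0.942% to 2.85% in immunopurified libraries. The part of such reads in the result was not tested.

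Eif4a1, the paralog with the same helicase activity, was not called. Its inputs were at 99.3, 102 and 154 CPM and its immunopurified libraries at 50.7 to 199 with a median of 103, so the groups overlapped (log2 fold change -0.08, 95% interval -0.70 to 0.54). The share of Eif4a1 in the counts of the pair needs no scaling between libraries. It was 28.6% ± 6.36 (SD, n = 12) in immunopurified RNA and 18.9% ± 0.594 (SD, n = 3) in input. Every immunopurified library, from 22.5% to 42.2%, lay above every input, from 18.3% to 19.4%. A two-sided exact permutation test over libraries gave p = 0.029, and 0.23 after adjustment over the 8 paralog pairs examined. In set A alone the shares were 29.4% ± 6.78 (SD, n = 9) and 18.6% ± 0.544 (SD, n = 2), and in set B alone 26% ± 5.03 (SD, n = 3) and 19.4% (n = 1). No 50-base run is shared by the transcripts of the pair. In the other 7 pairs the adjusted exact permutation p was 0.31 or higher.

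Eif4g2, which encodes a protein (DAP5) that lacks the cap-binding-protein site of the eIF4G scaffolds, had the highest CPM of the cap-binding group. Per kb of exon, over the 23 immunopurified libraries, Eif4b was higher (66.6 CPM, against 54.0 for Eif4g2). Eif4g2 averaged 537 ± 110 CPM (SD, n = 12) and 698 ± 86.7 (SD, n = 3) in inputs, with a log2 fold change of -0.33 (adjusted p = 0.18). Eif4g1, a main scaffold of the complex, averaged 167 ± 33.1 and 116 ± 21.6 CPM (0.58 ± 0.21, adjusted p = 0.10), and 10 of 12 immunopurified libraries lay above the highest input. Its paralog Eif4g3 was at 349 ± 41.8 and 305 ± 46.0 CPM (0.21, adjusted p = 0.49). For Eif4e, the cap-binding protein itself, the log2 fold change was -0.01 with a 95% interval of -0.64 to 0.63, and for its relative Eif4e2 it was -0.03 (-0.66 to 0.59). Of 11 cap-binding genes tested, 1 was lower and 10 were not called.

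Eif4enif1 (chr11:3202392-3244588, plus strand) encodes the 4E-transporter, which binds eIF4E, represses translation and moves eIF4E into the nucleus and into RNA granules. Inputs stood at 67.3 (saline), 53.9 (non-escalating) and 42.7 CPM (saline withdrawal). Immunopurified libraries ranged from 77.6 to 137 CPM with a median of 105, all above the highest input, and the log2 fold change was 0.98 ± 0.22 (adjusted p = 0.0165). It was 0.85 in set A alone (adjusted p = 0.12) and 1.28 in set B alone, again with 1 input. The other repressor of eIF4E with enough counts, Eif4ebp2, the main 4E-BP of brain, averaged 114 ± 42.2 CPM (SD, n = 12) against 75.9 ± 50.7 (SD, n = 3), and its groups overlapped (0.71, adjusted p = 0.27). Eif4ebp1 made up 0% to 1.53% of the counts of the Eif4ebp1 and Eif4ebp2 pair in those 12 libraries and was listed at 0 in all 3 inputs.

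**Figure D2:**
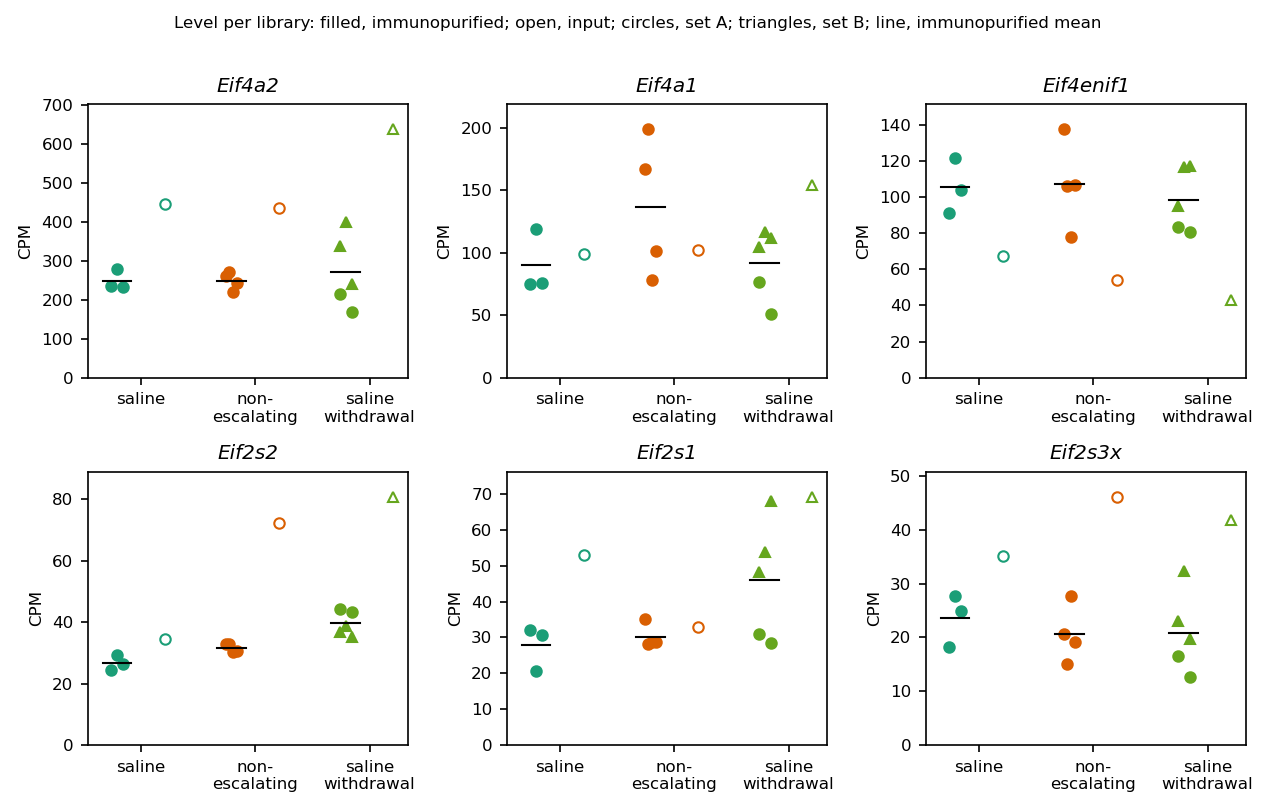
CPM (vertical axis, from 0) of 6 genes in each library of the 3 conditions with an input; filled symbols are immunopurified and open symbols input, circles set A and triangles set B, and the line is the immunopurified mean. All 12 immunopurified values of Eif4a2 lie below the lowest input at 435 CPM and all of Eif4enif1 above the highest at 67.3 CPM, while those of Eif4a1 overlap its inputs.

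The 3 subunits of eIF2 had the same sign. Eif2s2 (chr2:154871410-154892935, minus strand), which encodes the beta subunit that contacts eIF5 and eIF2B, stood at 34.4 (saline), 72.2 (non-escalating) and 80.8 CPM (saline withdrawal) in input. Its immunopurified libraries ranged from 24.6 to 44.4 CPM, with a median of 32.9, and each lay below the input of its own condition, although 5 of 12 lay at or above the saline input. The log2 fold change was -0.93 ± 0.22 (adjusted p = 0.02). Eif2s3x, the X-linked gene of the GTP-binding gamma subunit, was at 35.2, 41.8 and 46.2 CPM in inputs and 12.7 to 32.4 in immunopurified libraries without overlap, and missed the threshold (-0.85 ± 0.28, adjusted p = 0.076). Eif2s1, the alpha subunit that the stress kinases phosphorylate, overlapped between the groups (-0.46, adjusted p = 0.25). Eif5, which triggers GTP hydrolysis by eIF2, was at 218 to 247 CPM in inputs and 102 to 215 in immunopurified libraries (-0.50 ± 0.16, adjusted p = 0.068).

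Eif5b, the highest of this group by CPM, joins the ribosomal subunits. Its level was 275 ± 47.8 CPM (SD, n = 12) against 192 ± 42.6 (SD, n = 3), a log2 fold change of 0.57 (adjusted p = 0.10). Of 12 genes for 43S assembly and start-codon selection, 1 was called lower and 11 were not called, with a median of -0.19.

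eIF3, the large scaffold of the small subunit, leaned the other way, with 11 of 13 subunits tested above 0 and a median of 0.43, but no subunit was called. Eif3a, the largest subunit, was at 296 to 343 CPM in inputs and 376 to 599 in immunopurified libraries without overlap (0.56 ± 0.19, adjusted p = 0.076). Eif3b, the other core scaffold, was at 2.31 (saline withdrawal), 21.4 (non-escalating) and 23.4 CPM (saline) in inputs and 22.8 to 72.6 in immunopurified libraries (1.63 ± 0.50, adjusted p = 0.057). Eif3d, the subunit with a cap-binding activity of its own, had a log2 fold change of 1.28 ± 0.46 (adjusted p = 0.094), and 43.3% of its exon length overlaps 1 other annotated gene.

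Among subunits of the exchange factor eIF2B, mutated in vanishing white matter disease, Eif2b1 was at 19.9, 19.9 and 26.7 CPM in the 3 inputs and at 10.8 to 42.3 in immunopurified libraries (0.17, adjusted p = 0.84). The inputs of Eif2b4 and Eif2b3 differed widely from each other. Eif2b4 was at 0, 7.0 and 71.2 CPM in the 3 inputs and at 6.37 to 25.6 in immunopurified libraries (-0.04, 95% interval -2.34 to 2.26). Eif2b3 was at 3.95, 7.27 and 48.3 CPM in inputs and 2.83 to 14.4 in immunopurified libraries (-1.10, adjusted p = 0.24). Eif2b2, the highest of the 5 by CPM, had a log2 fold change of -1.07 (adjusted p = 0.26). None of the 5 was called.

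Among the eIF2 kinases, Eif2ak2 encodes PKR, which senses double-stranded RNA and is induced by interferon. Its inputs stood at 0.0897 (non-escalating), 0.632 (saline) and 3.0 CPM (saline withdrawal), and its immunopurified libraries ran from 0 to 61 CPM with a median of 17.2. The log2 fold change of 3.95 ± 1.22 missed the threshold (adjusted p = 0.058). Eif2ak1, the haem-regulated kinase and the highest of the 4 by CPM, was at 98.9 ± 19.7 CPM (SD, n = 12) against 83.0 ± 5.39 (SD, n = 3; 0.34, adjusted p = 0.26). Eif2ak4, which encodes the amino-acid sensor GCN2, was at 33.0 ± 24.4 and 24.5 ± 13.3 CPM (0.08, adjusted p = 0.92), and Eif2ak3, which encodes the endoplasmic reticulum kinase PERK, at 14 ± 5.78 and 25.0 ± 21.0 (-0.79, adjusted p = 0.34).

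Elongation factors did not pass the test. Eef1a1 was at 684 to 1135 CPM in inputs and 343 to 946 in immunopurified libraries, 9 of 12 below the lowest input (-0.46 ± 0.20, adjusted p = 0.16). Eef1a2 was at 150 to 159 CPM in inputs and spread from 38.9 to 341 in immunopurified libraries (0.22, adjusted p = 0.74). The Eef1a1 share of the pair was 79.0% ± 5.30 (SD, n = 12) and 84.3% ± 3.68 (SD, n = 3). Its two-sided exact permutation p was 0.13, or 0.31 adjusted over the 8 pairs. Eef2 was at 694 ± 223 and 692 ± 279 CPM (0.07, 95% interval -0.46 to 0.59). Eif5a, Eif6, an anti-association factor of the large ribosomal subunit, and Eef1akmt1, a lysine methyltransferase of eEF1A, were not called, with log2 fold changes of -0.08, 0.32 and 0.96.

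The count of called genes rested on single libraries. Without the non-escalating input 0 of the members passed by edgeR, and without the saline withdrawal input only Eif4a2 did. Set A alone called 0, and no count is given for set B alone, which has a single input. DESeq2 called 13 of the members and 2950 genes in all, against 1152 genes in all in the main fit. For the other settings the share of all genes called is not given, so their counts describe members alone. Eif4a2 kept its sign in all 25 alternative settings and was called in 22, Eif4enif1 in 21 and Eif2s2 in 19.

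Other genes of translation came from 6 lists, and 1 of 89 was called higher and 5 lower, a share near the 7.38% of all genes called (3.58% higher and 3.8% lower). Pelo, which rescues stalled ribosomes, was the only 1 of 14 genes of termination, recycling and poly(A) binding to be called (3.98 ± 0.86, adjusted p = 0.013). Among 16 synaptic and other regulators, 3 were lower, Cpeb1 (-2.32 ± 0.39), Cpeb2 (-0.99) and Cpeb3 (-0.84), which bind cytoplasmic polyadenylation elements. Cpeb3 was named after its value was seen. Impact, an inhibitor of GCN2, was the only 1 of 12 genes of the integrated stress response to be called (-0.76, adjusted p = 0.046), while Trib3 of that list gave 5.15 ± 1.69 (adjusted p = 0.073). Of 22 cytosolic aminoacyl-tRNA synthetases, Dars was lower (-1.5, adjusted p = 0.033) and Tars was not called (1.30, adjusted p = 0.11). None of 16 genes of mTOR and MNK control was called (lowest p: Rheb, -0.86, adjusted p = 0.11, and Pdcd4, -0.55, adjusted p = 0.16), and none of 9 mitochondrial factors (Mtif3, 2.25, adjusted p = 0.069, and Tsfm, -1.27, adjusted p = 0.14).

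The 5 groups of immunopurified libraries were compared in 1 fit of all 23, which tested 62 translation factor genes among 16910. In none of the 7 comparisons was a member called by edgeR, nor any gene (0.0% called in non-escalating vs saline, 0.0% in escalating vs saline, 0.0% in escalating vs non-escalating, 0.0% in non-escalating withdrawal vs saline withdrawal, 0.0% in saline withdrawal vs saline, 0.0% in non-escalating withdrawal vs non-escalating and 0.0% for the interaction of non-escalating intake with withdrawal). DESeq2 called no member in any of them, and 1 to 12 genes in all. Members with an unadjusted p under 0.05 numbered 0, 2, 1, 0, 2, 2 and 0 in that order, which is 0% to 3.23% of 62, against 2.04% to 5.23% of all genes. The lowest adjusted p of any member over the 7 comparisons was 0.75.

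For non-escalating cocaine against saline, Eif4a1 was at 73.8 to 119 CPM in saline and 78.6 to 199.6 in non-escalating libraries (log2 fold change 0.61 ± 0.39). Eif2a, which encodes an alternative carrier of initiator tRNA, averaged 56.5 ± 9.57 CPM (SD, n = 3) and 86.3 ± 26 (SD, n = 4), a log2 fold change of 0.61 ± 0.36. Eif3f was at 31.0 to 36.9 CPM in saline and 41.9 to 53.8 in non-escalating libraries, without overlap (0.47 ± 0.33). The lowest p in the other direction belonged to Eif3h (-0.40), Eif4e2 (-0.39) and Eif2d (-0.58), a factor that can also place initiator tRNA. None passed adjustment (edgeR, adjusted p = 1.0).

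The 2 escalating libraries, both of set A, were set against the same saline libraries. Eif2ak3 was at 5.44 and 7.31 CPM in escalating, 10.53 to 23.8 in saline and 7.70 to 18.5 in non-escalating libraries, so escalating values lay below all others of those groups. Its log2 fold change was -1.44 ± 0.59 against saline and -0.95 ± 0.56 against non-escalating intake. Eif4a1 was at 134 and 210 CPM in escalating libraries (0.95 ± 0.45 against saline), and Eif3f at 52.6 and 60.6 (0.72 ± 0.39). Eif2ak3 and Eif4a1 were the 2 members at an unadjusted p under 0.05 against saline. Eif5a2, the less abundant eIF5A gene, gave 0.65 against saline. Eef1d, a nucleotide exchange subunit of eEF1, gave -0.88 ± 0.46, and Eif6 gave -0.70. Against non-escalating intake, Eif4ebp2 was at 111 and 248 CPM against 46.2 to 163 (0.97 ± 0.47, the 1 member at an unadjusted p under 0.05), Eif4a3, the helicase of the exon junction complex, gave 0.71 and Eif1a 0.65. Eif4g1, at 126 and 143 against 169 to 223 CPM, gave -0.47 ± 0.31, and Eif4e3 gave -0.67. Adjusted p was 1.0 for all of these.

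After withdrawal, non-escalating cocaine was compared with saline in 9 and 5 libraries. The fold changes were small, with 53 of 62 members within 0.5 of 0 on the log2 scale, and 47 of 62 above 0, at a median of 0.16 against 0.01 for all genes. Reads outside genes were lower in the cocaine libraries (40.7% ± 13.2, SD, n = 9) than in the saline libraries (47.5% ± 15.3, SD, n = 5). With that share as a covariate 41 of 62 were above 0, in libraries under 50% 37 of 62, and with RLE size factors 38 of 62. No saline withdrawal library of set A was under 50%, so the count of 37 rests on set B for the difference between cocaine and saline. Set A alone gave 42 of 62 and set B alone 33 of 60. Endothelial and mural markers summed to 1114 to 7573 CPM in saline and 67.0 to 5164 in cocaine libraries (median log2 fold change -1.02), and indirect-pathway markers to 2081 to 7531 and 4030 to 16539 CPM (0.60). The medians were 0.81 for interneuron and -0.72 for microglial markers. No marker was called, and the part of these cells in the shift was not tested. The lowest p belonged to Eif3k, at 8.86 to 24.1 CPM in saline and 11.1 to 47.0 in cocaine libraries (0.65 ± 0.33), Eif4e (0.47 ± 0.26) and Eif4a3 (0.63 ± 0.35). Eif4e was 0.005 in the setting with the lowest value and 1.14 in the highest. Eef2k, the eEF2 kinase, gave -0.46 ± 0.34, Eif2s2 -0.29 ± 0.22 and Eif2ak2 -1.11 ± 0.87. Adjusted p was 0.75 for these 6 genes.

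Of the 8 paralog pairs none differed in that comparison by the two-sided exact permutation test, with adjusted p from 0.36 to 0.53. The Eif4e share of Eif4e and Eif4e2 was 74.2% ± 6.41 (SD, n = 9) in cocaine and 64.6% ± 14.1 (SD, n = 5) in saline withdrawal libraries (exact permutation p = 0.090). In set A alone it was 75.6% (n = 4) and 50.8% (n = 2), and in set B alone 73.1% (n = 5) and 73.8% (n = 3). The 2 saline withdrawal libraries of set A stood at 59.5% and 42.2%. They had 52.7% and 70.7% of reads outside genes, and the part of those reads in the difference was not tested. The Eef1a1 share was 77.5% ± 3.46 (SD, n = 9) and 82.1% ± 5.52 (SD, n = 5; exact permutation p = 0.081).

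**Figure D3:**
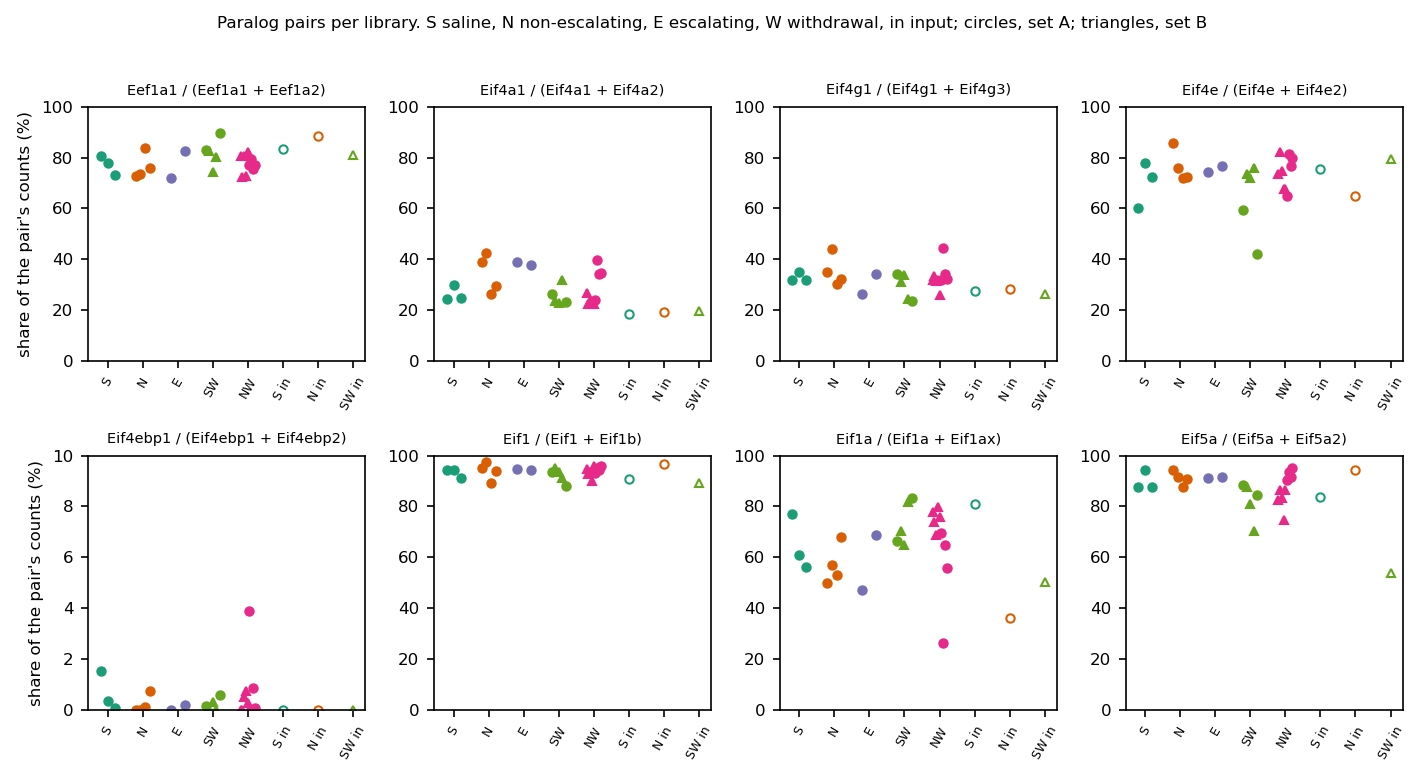
Share of the first gene in the summed counts of each of 8 paralog pairs (vertical axis, percent) in every library; filled symbols are immunopurified, open symbols input, circles set A and triangles set B, and the Eif4ebp1 panel ends at 10%. The Eif4a1 share is lowest in the 3 inputs, at 18.3% to 19.4%, and highest in a non-escalating library, at 42.2%.

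Withdrawal itself was compared within saline and within non-escalating animals, and the withdrawal libraries are the same as in the preceding comparison. In saline animals 20 of 62 members were above 0, with a median of -0.24 against 0.08 for all genes. Reads outside genes averaged 47.5% after withdrawal and 39.0% ± 10.7 (SD, n = 3) without it, and in libraries under 50% the count was 34 of 62 and the median 0.01. Both saline withdrawal libraries of set A exceed 50% (52.7% and 70.7%), so that fit held saline withdrawal in set B only and saline in set A only. Withdrawal and set were told apart there only through the non-escalating withdrawal libraries, so the count cannot show whether the shift depends on those reads. RLE size factors moved the median of all genes to 0.22 and the count to 28 of 62. Endothelial and mural markers summed to 224 to 3342 CPM in saline and 1114 to 7573 in saline withdrawal libraries (median 1.46), and indirect-pathway markers to 7876 to 12524 and 2081 to 7531 CPM (-0.51), the latter without overlap. Ranges of CPM in this paragraph and the next are not adjusted for set, while fold changes are. Libraries without withdrawal are all of set A and those after withdrawal are of both sets. Within set A the indirect-pathway sums after saline withdrawal were 2081 and 4652 CPM. The medians were 1.30 for microglial and -1.19 for interneuron markers. No marker was called, and their part in the shift was not tested. Eif4e was at 56.8 to 105 CPM without and 19.8 to 95.4 after withdrawal (-0.82 ± 0.37) and Eif3m at 17.6 to 29.3 and 5.10 to 36.1 (-1.05 ± 0.49), the 2 members at an unadjusted p under 0.05. Eif3i gave -0.80 ± 0.41. Positive values with the lowest p were those of Eef2kmt, a methyltransferase of eEF2 (2.47 ± 1.34), Eif2ak4 (1.08 ± 0.78) and Eif2s2 (0.35 ± 0.31). The adjusted p of these 6 genes was 0.78.

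In non-escalating animals Eef1akmt1 was at 9.79 to 32.7 CPM without and 3.73 to 16.2 after withdrawal (-1.31 ± 0.51). Eef1g, a structural subunit of eEF1, was at 97.0 to 159.9 and 53.0 to 126 CPM (-0.53 ± 0.25), and both had an unadjusted p under 0.05. Eif2a gave -0.62 ± 0.31. Eif4ebp2 was at 46.2 to 163 and 64.8 to 197 CPM (0.78 ± 0.38), Eif2d gave 0.75 ± 0.43, and Eif4ebp1 gave 2.88 ± 1.66 at levels of 0 to 0.64 and 0 to 4.21 CPM. Adjusted p was 0.93 throughout. The interaction had adjusted p = 1.0 for every member, and its lowest p belonged to Eif4a3 (0.99 ± 0.57), Eif4ebp1 (3.71 ± 2.21), Eif2s3x (0.61 ± 0.45), Eif2s2 (-0.54 ± 0.38), Eif3b (-0.61 ± 0.50) and Eef1akmt1 (-0.76 ± 0.72).

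Spread within groups differed widely between members. The SD of log2(CPM + 1) around group means was lowest for Eif4g3 (0.18), Eif3a (0.25), Eif3h (0.28) and Eif4g2 (0.30) among genes above 10 CPM on average. It was highest for Eif2ak2 (1.54), Eef2kmt (1.33) and Eif2ak4 (1.08). Levels of eIF3 subunits, as log2(CPM + 1) with group means left in, had a median pairwise correlation of 0.29 over 91 pairs and 23 libraries. Over all 1891 pairs of members it was 0.10. Both values are a description, because all pairs share the same libraries, their groups and their depth.

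Levels also moved with the share of reads outside genes, which was examined after the data had been seen by fitting, in edgeR, the slope of each gene per 10 percentage points with group and set in the model. Of 62 members, 29 passed, 3 higher and 26 lower with more reads outside genes. The background was as large, with 47.8% of all genes called, 25.1% higher and 22.7% lower, while the median slope was -0.16 for members and 0.02 for all genes. With RLE size factors the split was 6 higher and 17 lower. Within set A 2 were higher and 12 lower, and within set B 1 was higher and none lower. After leaving out the 2 libraries whose share lay farthest from the median, 2 were higher and 20 lower of 61. The share of all genes called is given for the main fit only, so counts in the other settings describe members alone.

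The lower genes included the most abundant factors. Eif5a went from 339 and 367 CPM in the libraries with the fewest reads outside genes (non-escalating replicates 2 and 1 of set A) to 120 and 69.5 CPM in those with the most (non-escalating withdrawal replicate 1 and saline withdrawal replicate 1 of set A), with a slope of -0.51 ± 0.05 (adjusted p = 4.86e-08). Slopes were -0.47 ± 0.06 for Eif1, -0.46 ± 0.07 for Eef1a2, -0.33 ± 0.05 for Eef2 and -0.31 ± 0.05 for Eef1a1, and those of 8 of 14 eIF3 subunits and 8 of 11 cap-binding genes were also called lower. The helicase pair had slopes of -0.34 ± 0.06 for Eif4a1 and -0.15 ± 0.05 for Eif4a2, and their difference was not tested.

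The 3 higher genes were kinases. Eif2ak2 was at 0 and 6.1 CPM in the 2 libraries with the fewest reads outside genes and at 42.1 and 60.4 in the 2 with the most (slope 1.1 ± 0.19, adjusted p = 4.56e-05), and it was also called within set A (1.30) and within set B (1.14). Eif2ak4 was at 11.5 and 20.3 against 75.7 and 102 CPM (0.72 ± 0.11, adjusted p = 9.89e-06), and Eef2k had a slope of 0.29 ± 0.09 (adjusted p = 0.0104). Within set B Eif2ak4 was not called (0.74, adjusted p = 0.089). Eef2k was called neither within set A (0.24, adjusted p = 0.22) nor within set B (0.41, adjusted p = 0.12), nor without the 2 libraries farthest from the median (0.25, adjusted p = 0.12). The other eIF2 kinases were Eif2ak1, which was lower (-0.22 ± 0.06), and Eif2ak3, which was not called (0.14, adjusted p = 0.32).

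**Figure D4:**
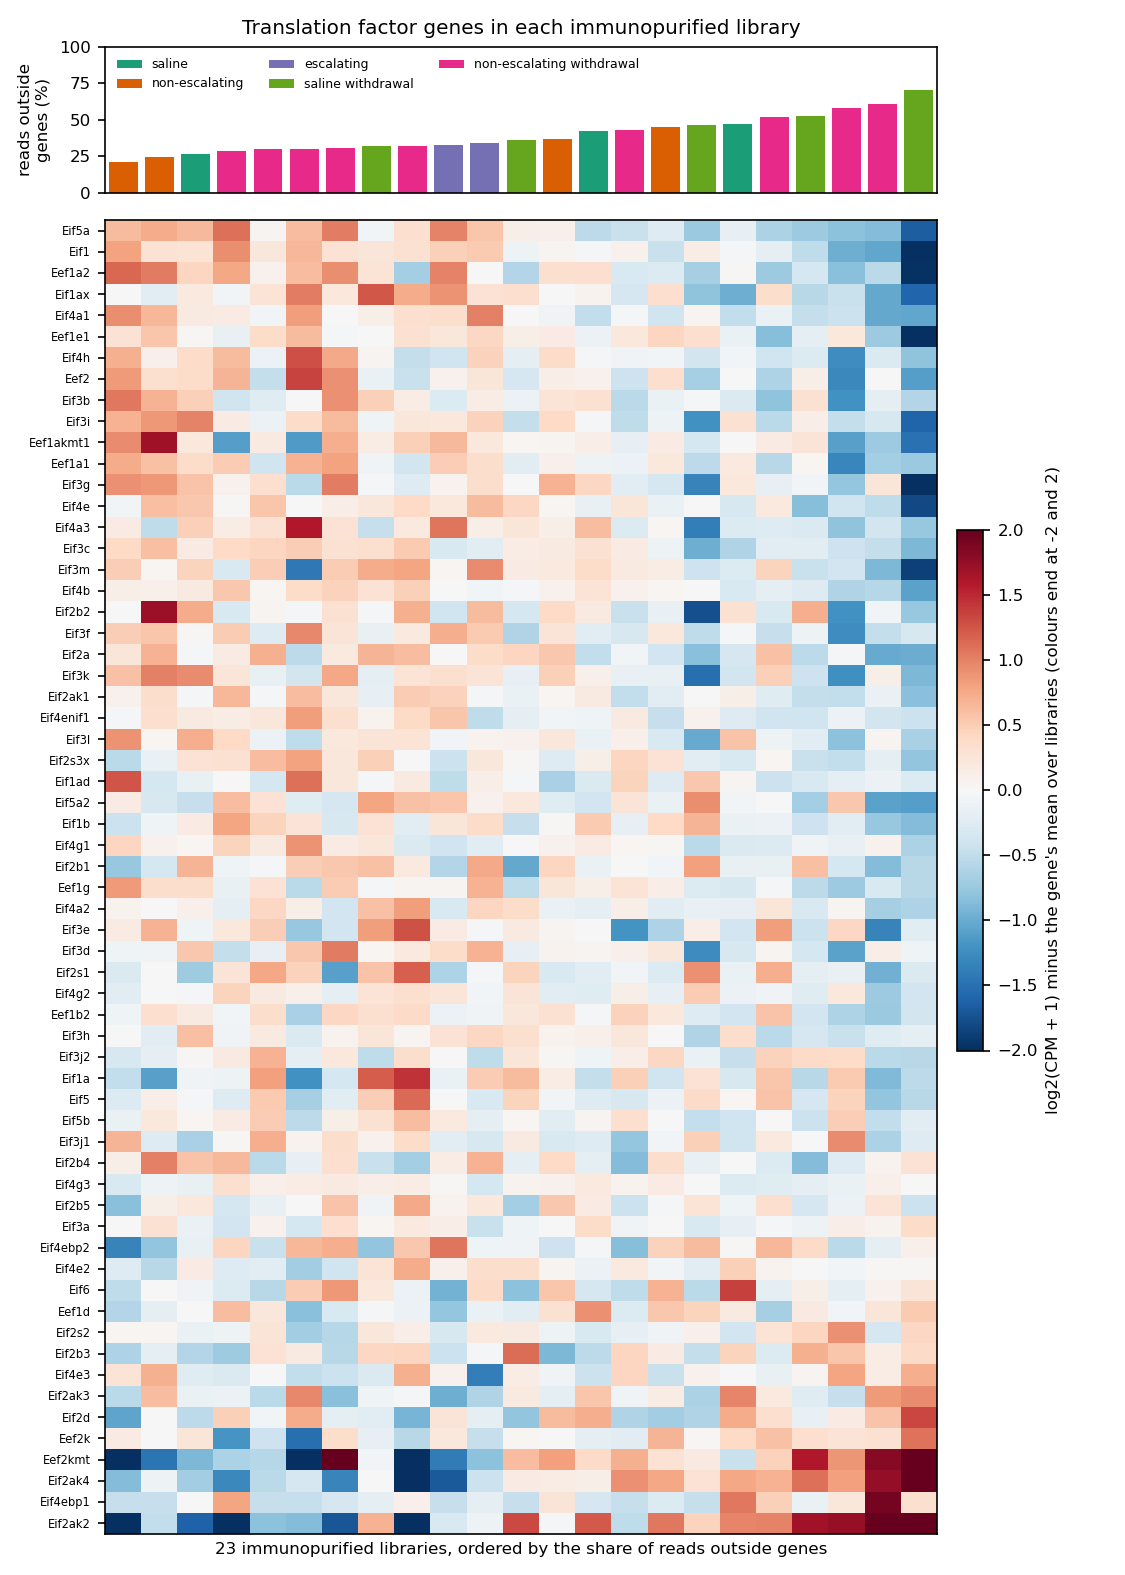
Colour gives log2(CPM + 1) minus the mean of each gene over 23 immunopurified libraries, for 62 translation factor genes ordered by slope; libraries are ordered by the share of reads outside genes, shown as bars coloured by group. Genes at the top, such as Eif5a, pass from red to blue from left to right, and Eif2ak2 and Eif2ak4 at the bottom pass from blue to red.

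Markers of some cell types moved with the same share. All 9 endothelial and mural markers had a positive slope and passed, and their sum was 67.0 to 4784 CPM in the 18 libraries under 50% and 1642 to 7573 in the 5 others. Of 8 indirect-pathway markers 7 passed in the lower direction, with sums of 5979 to 18101 CPM against 2081 to 5339, which did not overlap. Of 7 microglial markers tested 2 passed in the higher direction (0 to 29.7 against 16.8 to 36.1 CPM), and of 8 astrocyte markers 1 was higher (133 to 466 against 223 to 375 CPM). Of 9 oligodendrocyte and of 5 cortical glutamatergic markers, 1 was higher and 1 lower in each list. None of 6 direct-pathway and 7 interneuron markers passed. Over all genes 25.1% were called higher and 22.7% lower. The part of any cell type, and of the reads outside genes, in the values of Eif2ak2, Eif2ak4 and the abundant factors was not tested. Among the other translation lists, called slopes numbered 2 higher and 7 lower of 16 for mTOR and MNK control, 1 and 7 of 16 for synaptic regulators, 0 and 8 of 22 for synthetases, 1 and 2 of 14 for termination and recycling, 1 and 2 of 12 for the integrated stress response and 1 and 1 of 9 for mitochondrial factors.

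**Figure D5:**
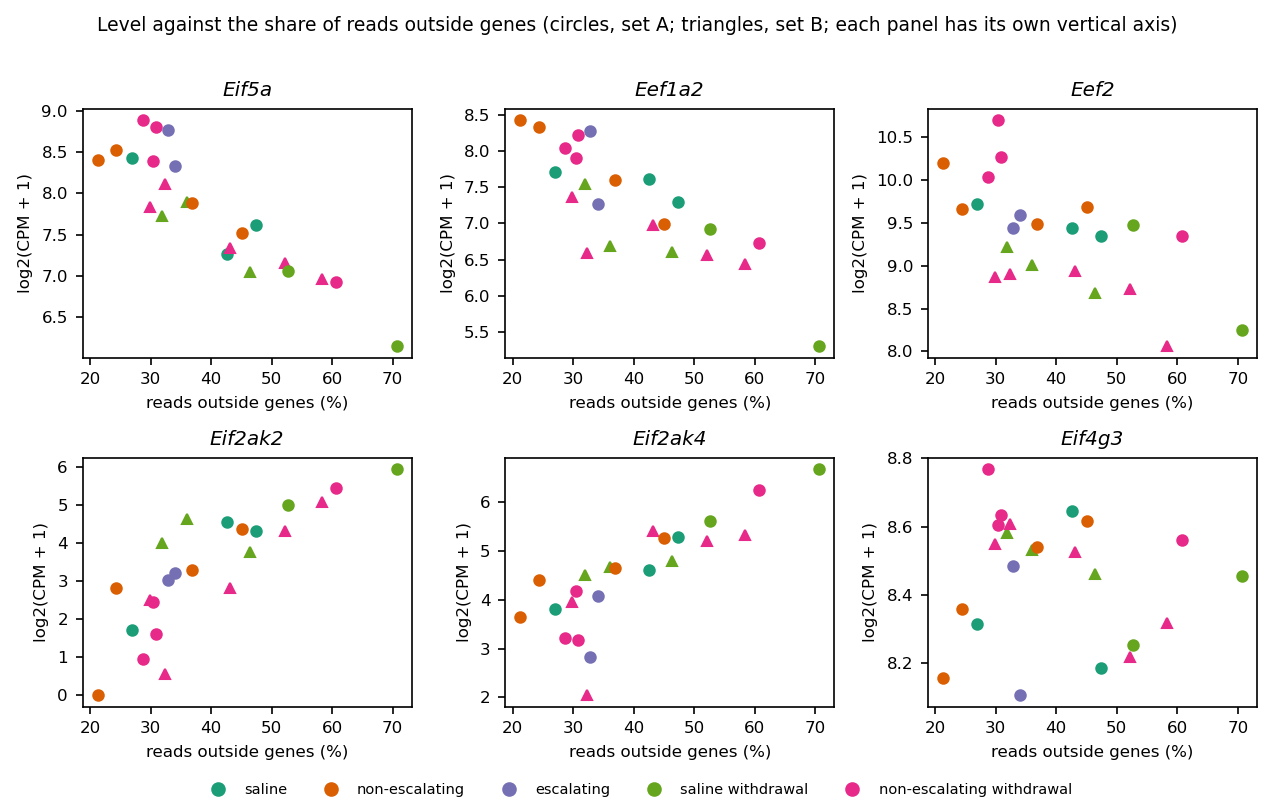
log2(CPM + 1) of 6 genes (vertical axis, own range in each panel) against the percentage of reads outside genes (horizontal axis) in 23 immunopurified libraries; colours are groups, circles set A and triangles set B. Eif5a, Eef1a2 and Eef2 fall to the right, with slopes of -0.51, -0.46 and -0.33 per 10 percentage points, Eif2ak2 and Eif2ak4 rise, with 1.1 and 0.72, and Eif4g3, whose slope was not called (-0.04), spans under 1 log2 unit.

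Promoters were available for 49 of the 64 genes (RefSeq starts, GRCm38.p6, 250 bases before to 50 after each start). They were searched on both strands for the core of the interferon-stimulated response element (GAAA, any 2 bases, then GAAA), the cyclic AMP response element (TGACGTCA) and the TATA box (TATAAA), none of which overlaps another. The 49 genes have 64 promoters, because a gene can have more than 1 start. The interferon core was found in 4 of these 64, 1 each of Eif2ak2, Eif2s1, Eif2s3x and Eif3a, and in 3.44% of all 32851 promoters. TATAAA was found in 4 of the 64, those of Eef2, Eif2s1, Eif3b and Eif3f, and in 13.6% of all promoters. The cyclic AMP element was found in 1 of the 64, that of Eef2, and in 1.79% of all promoters. Printed are Eif2ak2, the member with the steepest slope, Eif2s3x, which holds the same core on the opposite strand at base -4 and whose slope was not called (-0.20, adjusted p = 0.051), and Eef2, an abundant factor with 2 of the motifs, each from 100 bases before the start to 30 after it, 5′ to 3′ on the gene's strand, with motif matches in capitals. The windows are chr17:78882543-78882672 (minus strand), chrX:94212622-94212751 (minus strand) and chr10:81176531-81176660 (plus strand).
Eif2ak2: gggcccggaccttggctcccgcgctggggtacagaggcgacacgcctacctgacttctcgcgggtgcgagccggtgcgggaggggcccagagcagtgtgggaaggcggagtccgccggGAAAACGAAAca
Eif2s3x: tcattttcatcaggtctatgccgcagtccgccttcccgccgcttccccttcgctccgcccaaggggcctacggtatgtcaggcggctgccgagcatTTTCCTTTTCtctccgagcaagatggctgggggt
Eef2: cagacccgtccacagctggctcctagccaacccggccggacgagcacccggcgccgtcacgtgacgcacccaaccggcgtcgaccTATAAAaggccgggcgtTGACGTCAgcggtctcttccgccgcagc
The core of Eif2ak2 begins at base 19 after the start, and the TATA box and cyclic AMP element of Eef2 at bases -15 and 3. A match describes letters only; binding was not measured here.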

How the data were processed

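RNA of 23 immunopurified and 3 input libraries was measured by RNA sequencing. The deposited values are whole-number counts of reads per gene, 1 table per library, which the authors made with STAR 2.0.0e on mm10 and HTSeq, per the submitters' processing notes. Which annotation release, strand setting and read filters applied is not stated there. Tables follow 2 gene lists of 32531 and 32657 symbols, joined by current and older symbols; joined genes held 99.5% to 99.9% of counts, and 10 tables listed the shorter set. Lines for reads outside genes and ambiguous reads stayed out of library sizes and tests.

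Counts were tested with edgeR 4.0.16 (R 4.3.3; filterByExpr, TMM scaling, quasi-likelihood F test), with Benjamini-Hochberg adjustment over all genes and a threshold of 0.05. All 23 immunopurified libraries entered 1 fit with group and set (17 residual degrees of freedom), and 12 of them with the 3 inputs another with condition, purification and set (10). CPM, counts scaled to a common library size, used TMM-scaled library sizes, computed separately for the 2 fits. Log2 values used a pseudocount of 1. Paralog shares were tested by exact permutation of libraries (Python 3.11.15). DESeq2 1.42.0 was an alternative, as were RLE size factors, no count filter, each library left out, a replicate block, covariates and the sets apart. The fits were tested on simulated data. Same-numbered immunopurified libraries of different groups showed no shared deviation (the check is with the alternatives), so numbers were not treated as pairs there. Against input, numbers were not treated as pairs either. The check did not cover an input and the same-numbered immunopurified library of its condition. Gene positions are from GENCODE M21 (GRCm38) and promoters from RefSeq.

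The members and gene lists were chosen with earlier results of these data known. Members named for purified against input RNA were those called and the highest by CPM in each role; for the other comparisons those with the 3 lowest p-values per direction; for the other lists the 2 with the lowest p. Other genes named, and the relation to reads outside genes, were chosen after values were seen. Depth was 3279457 to 19122303 gene counts per library, and limits for a count of 0 cover counting error only. Intervals of log2 fold changes use the SE of the edgeR fit, which includes the estimated spread between libraries.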

Additional observations from a re-analysis of the deposited data

Results flagged for a closer look

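Of 171 sets of levels or shares within a group of 4 to 10 libraries, 13 had 1 library far from the others by Dixon's criterion (7.6%), where chance gives about 1 in 20; they came from 9 libraries.

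In non-escalating libraries, Eif3a stood at 564 CPM in replicate 1 against 455 to 458 in the others, and Eif4g1 at 223 CPM in replicate 2 against 169 to 177. The Eif4ebp1 share of its pair was 0.72% in replicate 4 against 0% to 0.0875%. Among saline withdrawal libraries, Eif2d stood at 48.8 CPM in replicate 1 of set A, the library with the most reads outside genes, against 10.48 to 17.0.

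The other 9 were in non-escalating withdrawal. In replicate 2 of set A, Eif4a3 was at 113 CPM against 20.5 to 45.3, the Eif4g1 share of Eif4g1 and Eif4g3 was 44.4% against 25.9% to 34.1%, and the Eif1a share of Eif1a and Eif1ax was 26.3% against 55.7% to 79.9%. In replicate 4 of set A, Eif3b was at 66.2 CPM against 14.3 to 38.7, and Eif3g at 116 CPM against 32.7 to 72.5. In replicate 1 of set A, Eif4ebp1 was at 4.21 CPM against 0 to 1.38, and its share of the pair with Eif4ebp2 was 3.89% against 0% to 0.858%. In set B, Eif2s2 was at 61.4 CPM in replicate 4 against 19.4 to 38.7, and Eif4e2 at 45.4 CPM in replicate 5 against 16.2 to 30.7. The cause of these values was not tested.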

How the results depend on the processing

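For purified against input RNA, 3 members were called, and 15 of 25 alternatives stayed within 1.5 times of that. The count was 13 with DESeq2, 5 with RLE size factors, 6 with reads outside genes as a covariate, 5 in libraries under 50% of reads outside genes, 0 in set A alone, 11 in set B alone and 0 to 5 without 1 library. Of 625 values of the 25 named genes 41 changed sign, none of a called gene. With the replicate block, in which the replicate number served as a block across both sets, the count of called members was 0. All 3 inputs are replicate 1, so the comparison then rested mainly on the immunopurified libraries of that number. Same-numbered immunopurified libraries of different groups had deviations correlated at a median of -0.082 over 25 pairs, against -0.0036 over 78 other pairs. Inputs did not enter that check, so it cannot decide whether the block is needed against input. Over the 7 comparisons of groups, all 219 alternative counts stayed at 0, the replicate block included, and 5 of 1310 values of named genes changed sign. No paralog pair passed under any of 17 and 16 alternatives. That outcome was fixed for set B alone against input (3 and 1 libraries) and for set A alone after withdrawal (4 and 2 libraries). Too few splits exist there for an exact permutation p under 0.05. In some other settings a single pair could not pass the adjustment over the 8 pairs, whatever its shares. These were set A alone against input (9 and 2 libraries), set B alone after withdrawal (5 and 3) and each setting without 1 input. For reads outside genes, 29 slopes were called, 14 in set A alone, 1 in set B alone and 24 to 31 without 1 library; of 841 slopes 1 changed sign, that of Eif4g2, at 0.0598 in set B alone (adjusted p = 0.69). The cause of these shifts was not tested. The fits restricted to libraries under 50%, the sets apart for purified against input RNA, and all fits of slopes were chosen after seeing the data. With 3 inputs and 2 escalating libraries, the median SE of a member was 0.35 and 0.46 on the log2 scale against input and against saline, respectively.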
